A study of Mus musculus with 6 samples.

Results

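Matrix metalloproteinases (MMPs) and their tissue inhibitors (TIMPs) were examined in irradiated mouse tumors through 10 genes. These were the MMP genes Mmp2, Mmp3, Mmp10, Mmp12, Mmp13, Mmp14 and Mmp19, which are 7 in number, and the 3 inhibitor genes Timp1, Timp2 and Timp3. They were taken by symbol from a deposited table of 21899 genes, in which each had 1 row. For testing, a gene had to average 1 FPKM or more (reads on a gene scaled by exon length and library total), which 10853 genes did, all 10 members included.

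The tumors grew from LLC-luc cells, a luciferase-carrying line of the Lewis lung carcinoma of mice, which were placed beneath the skin of male C57BL/6 mice weighing 18 to 20 g. Every sequenced tumor had been irradiated, and no unirradiated tumor was analysed here. The Laser group had irradiation without a photosensitizer (saline, by the study's methods), the PC-La group had phycocyanin (PC), a light-absorbing protein of Spirulina, and the SePC-La group had phycocyanin from selenium-enriched Spirulina. According to the labels, injections were made into the tumor every 5 days, and light of 620 nm was given for 10 min at 4 h after injection. The study's methods state another wavelength and another interval. Each group had 2 samples. The labels do not say whether they were separate mice, so the p-values measure only the spread between these samples.

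MMPs are zinc-dependent proteases that cut the proteins of the extracellular matrix. Most are secreted as inactive proenzymes and activated by the removal of a propeptide, and TIMPs bind the active site and block it. In tumors, MMPs and TIMPs are made by cancer cells, fibroblasts, macrophages and neutrophils alike. Since whole tumor tissue was sequenced, fewer cells of a type and less RNA per cell cannot be told apart.

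The recovered reads totalled 14447792 to 17649490 per sample. In the main fit (all 6 samples, values as deposited), no gene tested had an adjusted p under 0.05 from limma in any comparison. An unadjusted p under 0.05 was reached by 627 genes for PC-La against Laser, 1318 for SePC-La against Laser and 2637 for SePC-La against PC-La. The genes were called by the study's criterion, an absolute log2 fold change over 1 with an unadjusted p under 0.05. The study applied these cut-offs with DESeq and here they were applied with limma, so the genes called need not be the same. SE stands for standard error. All log2 fold changes are on the log2(FPKM + 1) scale, which understates the changes of low genes. The Laser samples were far apart, and 6 skeletal muscle genes summed to 137 FPKM in Laser replicate 2, 20.9 in Laser replicate 1 and at most 5.94 elsewhere. Of the epithelial and lung markers, Krt8 and Krt18 were high in every sample (at least 78.1 FPKM), whereas Epcam and Cdh1 did not exceed 0.129 and 1.17 FPKM, Sftpc did not exceed 0.369, and Nkx2-1 was listed at 0.

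The members spanned the whole range of expression. Mmp3 (stromelysin 1, which cuts many matrix proteins and activates other MMPs) had the highest mean level over the 6 samples, at 239 FPKM. It was followed by Timp2 with 146, Mmp14 with 87.6, Timp1 with 38.8, Mmp12 with 27.6, Mmp19 with 12.7, Mmp13 with 11.4, Mmp10 with 5.21, Mmp2 with 2.42 and Timp3 with 1.21 FPKM. FPKM is relative to exon length, inferred here to be that of all annotated exons of a gene merged. These lengths ran from 888 bases for Timp1 to 7237 for Mmp12 and 8144 for Timp3. A gene whose transcripts hold only part of its merged exons is understated, so levels compare only roughly between genes. The ranges of neighbours in this order overlapped over the samples, but within every sample Timp2 was above Mmp14 and Mmp14 above Timp1. The leading position was taken by Mmp3 in the PC-La and SePC-La means and by Timp2 in the Laser mean.

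**Figure D1:**
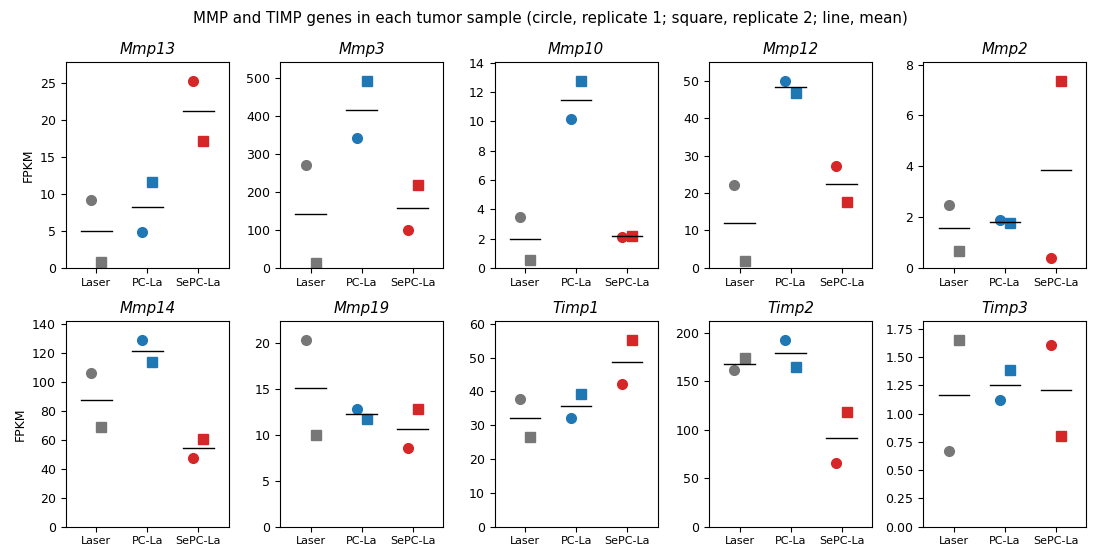
FPKM (vertical axes, each from 0) of the 10 members in the Laser, PC-La and SePC-La samples, with circles for replicate 1, squares for replicate 2 and lines for the mean of 2 samples. Mmp10 and Mmp12 stood highest in both PC-La samples, Mmp13 and Timp1 in both SePC-La samples, and Mmp14 and Timp2 lowest in both SePC-La samples.

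The members on chromosome 9 were first described together, because Mmp13, Mmp12, Mmp3 and Mmp10 lie in one cluster of 10 MMP genes that spans 427.1 kb. On GRCm38, Mmp13 lies from 7272514 to 7283331, Mmp12 from 7344381 to 7369499, Mmp3 from 7445822 to 7455975 and Mmp10 from 7502352 to 7510240, all on the plus strand. In all 4 genes Laser replicate 2 had the lowest of the 6 values, while 18.7% of the genes tested had their lowest value there. Timp1 and Mmp9, which lie outside the cluster, were also lowest in that sample. Mmp8, which lies in the cluster, had its highest value there, at 7.85 FPKM. The Laser samples differed 22.1-fold in Mmp3, 11.9-fold in Mmp12, 10.998-fold in Mmp13 and 6.60-fold in Mmp10. A level more than 5 times higher in Laser replicate 1 than in Laser replicate 2 was found in 1.6% of all genes tested, and these 4 members were among those genes.

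These 4 genes also shared promoter letters. RefSeq promoters of 300 bases (250 before the annotated start of the transcript and 50 after it, GRCm38.p6) were at hand for 8 of the 10 members. The AP-1 letters TGAGTCA, searched on both strands (TGACTCA on the other), are the sequence bound by Fos and Jun proteins. They were found in 4 members, Mmp3, Mmp10, Mmp12 and Mmp13, and not in Mmp14, Timp1, Timp2 or Timp3. Among all 32851 promoters of the same length, 5.2% held them. Counted by gene, as for the members, 5.95% of 27025 genes had a promoter that held them. The same 4 members held the letters TATAAA, which were searched on the given strand. These occurred in 8.32% of all promoters and in a promoter of 9.77% of the genes. Of 14 other genes of the family with a promoter, 3 held the AP-1 letters, namely Mmp1a, Mmp1b and Mmp7, and 5 held the TATAAA letters. The 70 bases before the start are shown for members with and without the match, so that its place can be compared. Capitals mark the AP-1 letters, and each run reads 5′ to 3′ on the plus strand.
Mmp13, chr9:7272444-7272513: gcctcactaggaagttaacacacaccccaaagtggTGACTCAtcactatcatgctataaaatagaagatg
Mmp3, chr9:7445752-7445821: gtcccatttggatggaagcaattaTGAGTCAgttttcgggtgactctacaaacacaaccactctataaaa
Mmp10, chr9:7502272-7502341: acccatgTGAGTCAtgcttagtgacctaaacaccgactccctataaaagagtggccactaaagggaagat
Mmp12, the second of its 2 annotated starts, chr9:7347304-7347373: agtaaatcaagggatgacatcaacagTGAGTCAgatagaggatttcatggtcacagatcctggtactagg
Mmp14, chr14:54431528-54431597: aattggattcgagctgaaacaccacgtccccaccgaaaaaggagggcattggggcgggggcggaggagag
Timp1, chrX:20870096-20870165: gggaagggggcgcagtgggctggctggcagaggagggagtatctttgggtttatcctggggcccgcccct

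The AP-1 match began at position -35 in Mmp13, -46 in Mmp3, -63 in Mmp10 and -44 in Mmp12, counted from the base before the start as -1. The TATAAA letters began at -16 in Mmp13, -7 in Mmp3 and -29 in Mmp10. In Mmp12 they began at position 5, after the second start. The first annotated start of Mmp12 had no match to either. A match is a description of letters and no evidence of binding.

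**Figure D2:**
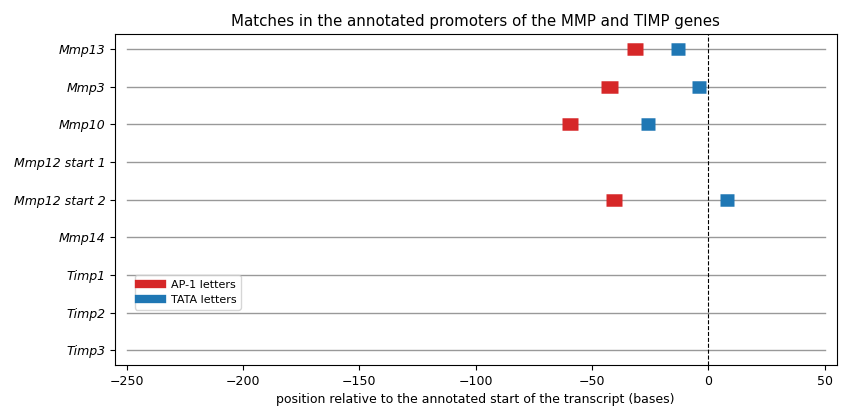
Matches to the AP-1 letters (red) and to the TATA letters (blue) in the 300-base promoters of 8 members, with the position relative to the annotated start in bases on the horizontal axis. The matches stand in Mmp13, Mmp3, Mmp10 and the second start of Mmp12, and the lines of Mmp14 and the TIMP genes are empty.

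PC-La was compared with Laser to see what phycocyanin added to irradiation. Of the 10 members, 1 met the criterion, Mmp10, which was higher in PC-La, while 1.29% of all genes tested met it (0.866% higher and 0.424% lower in PC-La). It was also the only member with an unadjusted p under 0.05, which 5.78% of all genes had. The median log2 fold change of the members was 0.36, and that of all genes tested was -0.001. The groups did not overlap in 4 members, all higher in PC-La, and 42% of all genes were non-overlapping (20.4% with PC-La higher and 21.6% with PC-La lower).

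Mmp10 (stromelysin 2, a close relative of Mmp3) had 3.47 and 0.526 FPKM with Laser alone, 10.1 and 12.8 after PC-La and 2.13 and 2.20 after SePC-La. Both PC-La samples were above every other sample, and the Laser and SePC-La ranges overlapped. Its log2 fold change in PC-La was 2.24 (SE 0.49, limma adjusted p = 0.607), a ratio of mean FPKM of 5.73. The call was kept in each of the 9 other analyses and in all 6 analyses with a sample left out, where the log2 fold change ran from 1.47 to 3.02. These levels rested on 16 to 329 reads per sample.

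Mmp12 (macrophage elastase) had 22.1 and 1.85 FPKM with Laser alone, 50.04 and 46.9 after PC-La and 27.2 and 17.7 after SePC-La. Both PC-La samples were above all others, and the SePC-La samples lay on either side of Laser replicate 1. Its log2 fold change in PC-La was 2.61 (SE 1.00, limma adjusted p = 0.753), with a 95% interval that reached from just below 0 to 5.22, so that it just missed the criterion. It was called without the filter on low values, with plain moderation and in a fit blocked on replicate number, and also with a single Laser sample as control (4.12 over replicate 2, 1.101 over replicate 1). Of its 7237 exon bases, 157 are shared with Mmp1b on the opposite strand.

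Mmp3 had 270 and 12.2 FPKM with Laser alone, 343 and 493 after PC-La and 99.7 and 217 after SePC-La. PC-La was above both Laser samples, but its distance to Laser replicate 1 was small beside the distance between the Laser samples. The log2 fold change in PC-La was 2.78 (SE 1.47, limma adjusted p = 0.753), or 0.60 without Laser replicate 2 and 4.96 without Laser replicate 1, where the adjusted p was 0.0228. The plot of the controls shows this for each member.

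**Figure D3:**
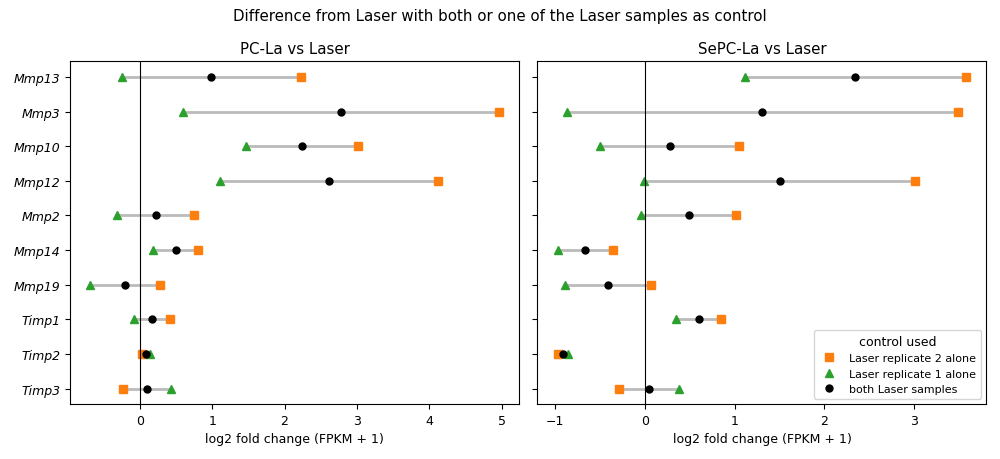
Log2 fold change of PC-La (left) and SePC-La (right) from Laser for each member, with both Laser samples (black circles), Laser replicate 1 alone (green triangles) or Laser replicate 2 alone (orange squares) as control. Mmp3 ran from 0.60 to 4.96 in PC-La and from -0.87 to 3.49 in SePC-La, while Timp2 in SePC-La ran from -0.97 to -0.86.

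Mmp14 (membrane type 1 MMP, a collagenase anchored in the cell membrane that activates proMMP-2) lies on chromosome 14 from 54431612 to 54445364. It had 106 and 69.0 FPKM with Laser alone, 129 and 113 after PC-La and 47.3 and 60.9 after SePC-La. The 3 groups did not overlap. The log2 fold change in PC-La was 0.49 (SE 0.23, limma adjusted p = 0.753), with a 95% interval from -0.07 to 1.05. The inhibitors stayed near Laser in PC-La, with log2 fold changes of 0.17 for Timp1, 0.09 for Timp2 and 0.09 for Timp3. Their 95% intervals reached from -0.36 to 0.69, from -0.56 to 0.74 and from -0.62 to 0.81, so that changes within these bounds could not be seen.

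SePC-La was compared with Laser in the same way. Mmp13 alone of the 10 members met the criterion, being higher in SePC-La, where 0.682% of all genes tested met it (0.544% higher and 0.138% lower). The direction of these calls over all genes depended on single samples, with 59 higher and 15 lower in all, 50 and 159 without Laser replicate 2, and 61 and 92 without SePC-La replicate 2. An unadjusted p under 0.05 was reached by 4 members (12.1% of all genes). These were Mmp13 and Timp1, both higher in SePC-La, and Mmp14 and Timp2, both lower. They were also the members whose groups did not overlap, as in 40.6% of all genes (15% higher and 25.6% lower in SePC-La). The median log2 fold change was 0.38 for the members and -0.065 for all genes.

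Mmp13 (collagenase 3, which cleaves fibrillar collagen) had 9.09 and 0.827 FPKM with Laser alone, 4.79 and 11.5 after PC-La and 25.2 and 17.1 after SePC-La. Both SePC-La samples were above all others, and Laser and PC-La overlapped. Against Laser, Mmp13 rose by 2.34 on the log2 scale in SePC-La (SE 0.89, limma adjusted p = 0.408), with a value of 1.11, not called, when Laser replicate 2 was left out. The call was kept in 5 of 9 other analyses, and of the 6 analyses that left out a sample it was kept in 1, that without Laser replicate 1 (3.58). It was lost in a fit blocked on replicate number, with a pseudocount of 0.1, with a minimum mean of 5 FPKM and with only the 4 samples compared.

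Timp1 (an inhibitor also known to act as a growth factor) lies on the X chromosome from 20870166 to 20874735. Its FPKM was 37.7 and 26.4 with Laser alone, 32.3 and 39.1 after PC-La and 42.3 and 55.2 after SePC-La. Both SePC-La samples were above all others. The difference from Laser was small, with a log2 fold change of 0.60 (SE 0.22, limma adjusted p = 0.385), and it stayed between 0.35 and 0.85 with each sample left out.

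Timp2 (an inhibitor that also takes part in the activation of proMMP-2 by Mmp14) lies on chromosome 11 from 118301069 to 118355740. It had 161 and 174 FPKM with Laser alone, 192 and 165 after PC-La and 65.9 and 118 after SePC-La. Both SePC-La samples were below all others, and Laser and PC-La overlapped. The log2 fold change from Laser was -0.92 (SE 0.27, limma adjusted p = 0.376). That equals the smallest adjusted p of this comparison, but genes of several other lists shared it, so it does not set Timp2 apart. Mmp14 moved the same way, by -0.66 (SE 0.23, limma adjusted p = 0.385). For both genes the direction held with every sample left out, from -1.33 to -0.50 for Timp2 and from -0.97 to -0.36 for Mmp14.

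Against Laser, SePC-La showed no call for Mmp3, Mmp10 or Mmp12. Their log2 fold changes of 1.31, 0.28 and 1.50 turned to -0.87, -0.50 and -0.01 without Laser replicate 2, and without Laser replicate 1 all of them met the criterion. No direction can be given for these genes.

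**Figure D4:**
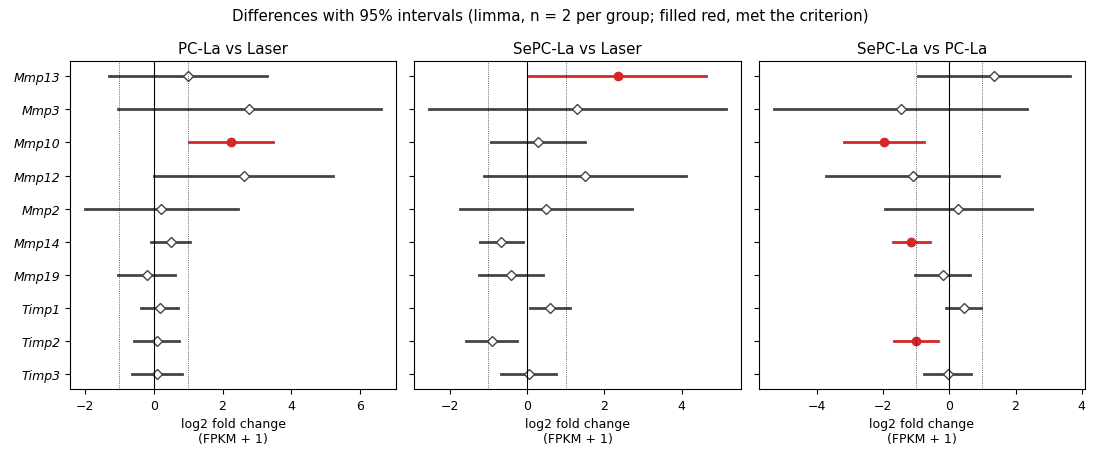
Log2 fold change on the log2(FPKM + 1) scale (horizontal axes) of the 10 members in the 3 comparisons, with 95% intervals from limma, 2 samples per group. Filled red circles mark members that met the criterion: Mmp10 for PC-La against Laser, Mmp13 for SePC-La against Laser, and Mmp10, Mmp14 and Timp2 for SePC-La against PC-La.

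The photosensitizers were then compared with each other at the same irradiation. By the study's measurements the selenium-enriched preparation also held less zinc, chromium and manganese, so selenium alone cannot be told apart. The comparison shares its samples with those above. Of the 10 members, 3 met the criterion and all were lower in SePC-La, Mmp10, Mmp14 and Timp2. Among all genes tested 2.98% met it, with 1.18% higher and 1.8% lower in SePC-La. The same 3 members had an unadjusted p under 0.05, as 24.3% of all genes did. The split of all genes called depended on scaling, with 128 higher and 195 lower as deposited, 166 and 149 with median-ratio scaling, and 169 and 149 with quantile normalization. The median log2 fold change was -0.61 for the members and -0.074 for all genes. The groups did not overlap in 7 members, 2 higher and 5 lower in SePC-La, where 65.5% of all genes were non-overlapping (26% higher and 39.5% lower), so the share of members is near that of all genes.

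Mmp10 fell by 1.97 on the log2 scale (SE 0.49, limma adjusted p = 0.133) and Mmp14 by 1.16 (SE 0.23, limma adjusted p = 0.126). As ratios of mean FPKM, SePC-La stood at 0.189 of PC-La for Mmp10 and at 0.447 for Mmp14. Both calls were kept in all 9 other analyses. The call of Mmp14 was lost without SePC-La replicate 1, at -0.98, and that of Mmp10 was kept with every sample left out. Timp2 was just past the fold change, at -1.005 (SE 0.27, limma adjusted p = 0.134). It was at -0.90 with median-ratio scaling, -0.89 without PC-La replicate 1 and -0.59 without SePC-La replicate 1, which were not called.

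The shared fit carries the wide spread of the Laser samples into this comparison. With only the PC-La and SePC-La samples in the fit, 6 members met the criterion, 5 of them lower in SePC-La (Mmp3, Mmp10, Mmp12, Mmp14 and Timp2) and Mmp13 higher. There the adjusted p was 0.0148 for Mmp10, 0.0324 for Mmp14 and 0.0487 for Mmp12 from limma, and 637 of all genes had an adjusted p under 0.05. In the fit of all samples, the log2 fold change of Mmp13 was 1.36 with a 95% interval from -0.94 to 3.65, that of Mmp3 was -1.47 (-5.31 to 2.36), and that of Mmp12 was -1.11 (-3.72 to 1.50).

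Mmp2, Mmp19 and Timp3 met the criterion in no comparison, and their groups overlapped throughout. Mmp2 (gelatinase A, on chromosome 8 from 92827291 to 92853420) had 2.49 and 0.672 FPKM with Laser alone, 1.88 and 1.74 after PC-La and 0.370 and 7.36 after SePC-La. The SePC-La samples were its lowest and its highest, with 18 and 433 reads. The collagen genes Col1a1 and Col1a2 were likewise apart in SePC-La, at 3.99 and 23.2 FPKM and at 1.33 and 10.1 FPKM. Mmp19 (an MMP that cuts basement membrane proteins, on chromosome 10 from 128790910 to 128800824) had 20.3 and 9.93 FPKM with Laser alone, 12.8 and 11.8 after PC-La and 8.58 and 12.8 after SePC-La. It shares 789 of its 3533 exon bases with Tmem198b and 212 with Gm47093, both on the opposite strand. Timp3 (an inhibitor bound to the matrix that also blocks ADAM proteases, on chromosome 10 from 86300372 to 86349506) had 0.672 and 1.65 FPKM with Laser alone, 1.12 and 1.39 after PC-La and 1.61 and 0.802 after SePC-La. It was the lowest member in each group, with 86 to 237 reads, and 1733 of its 8144 exon bases are shared with Syn3 on the opposite strand.

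Within each tumor, most of the members' summed FPKM came from Mmp3, Mmp14 and Timp2. The MMP members summed to 434 and 95.1 FPKM with Laser alone, 551 and 692 after PC-La and 211 and 336 after SePC-La. Mmp3 made up 62.3% and 12.9% of this sum with Laser alone, 62.2% and 71.3% after PC-La and 47.3% and 64.8% after SePC-La. The TIMP members summed to 199 and 202 FPKM with Laser alone, 226 and 205 after PC-La and 110 and 174 after SePC-La. The TIMP sums of both SePC-La samples were thus below all others. The ratio of summed MMP to summed TIMP was 2.18 and 0.472 with Laser alone, 2.44 and 3.37 after PC-La and 1.92 and 1.93 after SePC-La. Both PC-La samples had the highest ratios, and Laser enclosed SePC-La. This order rested on Mmp3, for without it the ratio was 0.820 and 0.411 with Laser alone, 0.923 and 0.966 after PC-La and 1.010 and 0.678 after SePC-La, and the highest value was that of SePC-La replicate 1.

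**Figure D5:**
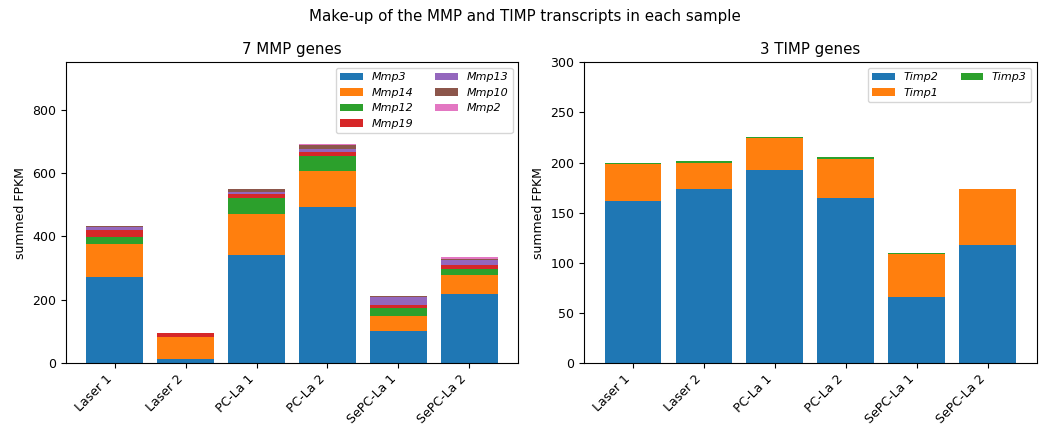
Summed FPKM (vertical axes, from 0) of the 7 MMP members (left) and the 3 TIMP members (right) in each of the 6 samples, stacked by gene. Mmp3 is the largest MMP part in every sample but Laser replicate 2, where Mmp14 made up 72.6%, and Timp2 is the largest TIMP part throughout.

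Among ratios between single members, some separated SePC-La from the other groups and others did not. Timp1 relative to Timp2 was 0.234 and 0.152 with Laser alone, 0.168 and 0.238 after PC-La and 0.642 and 0.468 after SePC-La. Both SePC-La samples were highest in Timp1 and lowest in Timp2, so this separation followed from the values given above. Mmp13 relative to Mmp10 was 2.62 and 1.57 with Laser alone, 0.472 and 0.905 after PC-La and 11.8 and 7.81 after SePC-La. In this second ratio the 3 groups did not overlap, with PC-La lowest and SePC-La highest. That SePC-La was above PC-La followed from Mmp13 being highest in SePC-La and Mmp10 being highest in PC-La. Laser replicate 2 lay with its group although both genes were low there, with 39 reads for Mmp13 and 16 for Mmp10. Mmp14 relative to Timp2 was 0.659 and 0.398 with Laser alone, 0.670 and 0.689 after PC-La and 0.719 and 0.516 after SePC-La, so that the groups overlapped where both genes were low in SePC-La. Mmp3 relative to Mmp10 also overlapped, at 77.8 and 23.2 with Laser alone, 33.8 and 38.6 after PC-La and 46.8 and 99.1 after SePC-La. With 2 samples against 2, an exact permutation test of such a ratio cannot go below p = 0.333, and none was run.

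Of the 17 other genes of the family, 4 passed the filter. Mmp8 (neutrophil collagenase) had 3.57 and 7.85 FPKM with Laser alone, 1.50 and 1.46 after PC-La and 6.96 and 5.90 after SePC-La. It was lower in PC-La than in Laser (log2 fold change -1.36, SE 0.30, limma adjusted p = 0.560) and higher in SePC-La than in PC-La (1.58, SE 0.30, limma adjusted p = 0.126), and both differences met the criterion. The first was -0.88, not called, without Laser replicate 2, and the second was called with every sample left out. Mmp8 lies in the chromosome 9 cluster, and its lowest values were in PC-La, where Mmp10 had its highest. Mmp28 (epilysin) was lower in SePC-La than in PC-La by the criterion (-1.09, SE 0.27, limma adjusted p = 0.126), but was not called with quantile normalization (-0.90), without PC-La replicate 2 (-0.99) or without SePC-La replicate 1 (-0.85). Mmp9 (gelatinase B) had 13.1 and 2.56 FPKM with Laser alone, 11.4 and 13.9 after PC-La and 6.41 and 26.6 after SePC-La, and Mmp11 (stromelysin 3) had 8.12 to 17.7 FPKM. Neither met the criterion. Mmp1a and Mmp1b, interstitial collagenases with similar copies between which counting could split reads, were below the filter. Mmp1a had 0.474 and 0.0282 FPKM with Laser alone, 1.43 and 2.42 after PC-La and 0.0688 and 0.342 after SePC-La, with PC-La highest as for Mmp10. Mmp7, Mmp20 and Mmp21 were listed at 0 in all samples.

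Of 16 genes that activate MMPs or govern them at the cell surface, 10 were tested. Plaur, the receptor of urokinase, was higher in SePC-La than in PC-La by 1.19 (SE 0.14) on the log2 scale. Plat, the tissue-type plasminogen activator, was lower in SePC-La than in PC-La (-1.40, SE 0.34). Plau, which encodes urokinase, was higher in PC-La than in Laser (1.21, SE 0.44, and 0.62 without Laser replicate 2). These 3 genes met the criterion, and the smallest limma adjusted p among them was 0.0774, for Plaur. Bsg, an inducer of MMPs, was the most abundant of the list, with 256, 251 and 361 FPKM as group means in Laser, PC-La and SePC-La. Of 5 ADAM and ADAMTS proteases that Timp3 inhibits, 4 were tested and none met the criterion.

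Of 18 matrix proteins that MMPs cut, 17 were tested. In SePC-La against PC-La, 3 met the criterion and all were lower, namely Fn1 (fibronectin, -2.04), Fbn1 (fibrillin 1, -1.82) and Vcan (versican, -1.19). Fn1 was also higher in PC-La than in Laser (1.16, or 0.47 without Laser replicate 2). The median of the 17 genes was -0.63 in SePC-La against PC-La, beside -0.074 for all genes. Both SePC-La samples were below both PC-La samples in 12 of the 17, as in 39.5% of all genes, and 1.8% of all genes were called lower. None met the criterion in SePC-La against Laser. The most abundant were Spp1, Col3a1 and Fn1, with 734, 463 and 242 FPKM as means in Laser.

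Of 8 cytokine genes that are known to induce MMPs or TIMPs, 6 were tested. Osm (oncostatin M) had 7.20 and 2.62 FPKM with Laser alone, 4.22 and 3.76 after PC-La and 11.8 and 11.2 after SePC-La. The log2 fold change of Osm with SePC-La was 1.20 against Laser and 1.33 against PC-La (SE 0.36 for both), which met the criterion. Against Laser it was 0.61 without Laser replicate 2. Il17a was listed at 0. Among 13 AP-1, ETS and RUNX factors, all tested, 1 met the criterion, Fosl1, which was higher in SePC-La than in PC-La (1.17, SE 0.16, limma adjusted p = 0.0868). The most abundant, Junb and Jun, had 112 and 88.0 FPKM in Laser replicate 1 and 69.4 and 84.9 in Laser replicate 2. Of the other Fos and Jun genes, Fosb had 11.9 and 1.14 FPKM in Laser replicates 1 and 2, and Fos had 52.1 and 22.8. In the same samples Fosl2 had 19.7 and 10.8, Fosl1 18.6 and 16.3, and Jund 8.43 and 9.65 FPKM. The part of these factors in the values of the members was not tested.

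Markers of several cell types moved with these groups. All 8 fibroblast markers passed the filter, and their summed level was 535 and 75.3 FPKM with Laser alone, 829 and 708 after PC-La and 50.3 and 244 after SePC-La, with Dcn and Lum foremost. Not all of these markers followed the sum. Col1a1, Col1a2 and Postn were highest in SePC-La replicate 2, at 23.2, 10.1 and 4.75 FPKM. Pdgfrb averaged 4.22, 4.12 and 3.92 FPKM in Laser, PC-La and SePC-La. Like the sum, Mmp3 and Mmp10 were highest in PC-La, but they were lowest in Laser replicate 2. Of the fibroblast markers Fap met the criterion, lower in SePC-La than in PC-La. The 8 macrophage markers summed to 651 and 695 FPKM with Laser alone, 891 and 945 after PC-La and 376 and 713 after SePC-La. Mmp12 and Mmp14 were likewise highest in PC-La. Mmp14 and Timp2 were lowest in both SePC-La samples, whereas the macrophage sum of SePC-La replicate 2 was above both Laser samples. From Laser replicate 1 to replicate 2, however, Mmp12 went from 22.1 to 1.85 FPKM and Mmp14 from 106 to 69.0, while the macrophage sum rose. Most of the sum came from C1qa, C1qb and C1qc, and not all markers followed it, since Mrc1 averaged 28.2, 14.4 and 19.9 FPKM and Cd68 68.0, 56.5 and 70.7 FPKM in Laser, PC-La and SePC-La. C1qa and C1qc were lower in SePC-La than in PC-La by the criterion. Of 7 neutrophil markers 5 passed the filter, Ly6g did not exceed 0.912 FPKM and Mpo was at or near 0. The 7 markers summed to 148 and 31.9 FPKM with Laser alone, 145 and 77.3 after PC-La and 331 and 435 after SePC-La. S100a9 was the largest part, at 104 and 14.1, 96.8 and 52.5, and 226 and 300 FPKM in the same order. Like this sum, Mmp13 and Timp1 were highest in both SePC-La samples and lowest in Laser replicate 2. Mmp8 was also higher in SePC-La than in PC-La, but it was highest in Laser replicate 2, at 7.85 FPKM. S100a8, S100a9 and Retnlg met the criterion in SePC-La against Laser, and S100a8 and Retnlg also against PC-La, all higher. The 6 muscle markers were highest in Laser replicate 2, where the chromosome 9 members were lowest, and all of them met the criterion, lower, in both comparisons with Laser. None of the endothelial or T cell markers met the criterion. Endothelial markers summed to 17.5 to 30.2 FPKM and T cell markers to 2.53 to 8.37 FPKM over all samples. Of 5 keratinocyte markers, 4 were listed at 0. The part of these cells in the values of the members was not tested.

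Genes with the pattern most like that of Mmp13 over the 6 samples were Tufm, Hnrnpc, Slc9a2, Psmg4 and Areg, with Pearson correlations of 0.996, 0.995, 0.990, 0.987 and 0.976 of their log2 values, given as a description. Their amplitudes differed, since Tufm ran from 27.0 to 37.2 FPKM and Areg, which encodes the growth factor amphiregulin, from 10.1 to 41.7 FPKM. For Timp1 they were Snrpa1, Tomm40, Bccip, Ccrl2 and Pde4b, with correlations of 0.986 to 0.971. A correlation over 0.9 was found for 103 genes with Mmp13 and for 96 with Timp1.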

How the data were processed

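RNA from mouse tumors was sequenced in 6 samples, 2 in each of 3 groups, which were assigned from the sample titles. The authors deposited 1 table of FPKM values (reads per gene, scaled by exon length and library total), with 1 column per sample and no column of other samples. The file does not name its unit, so it was inferred: multiplication by merged exon lengths (GENCODE M21, GRCm38) gave whole reads, within 0.02 of a read, in all 6 samples for 97.8% of 16785 expressed genes, with recovered totals from 14447792 to 17649490 reads per sample. The submitters' processing notes list HISAT2 2.0.5, HTSeq 0.9.1 and the build mm9, without their roles. The annotation and the use of strand in counting are not given in the sources used here. All coordinates were read from that GRCm38 annotation.

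Genes averaging 1 FPKM or more were tested on the log2(FPKM + 1) scale with limma 3.58.1 (R 4.3.3), with a mean per group, all 6 samples in one fit, and empirical Bayes moderation with trend and robust estimation. P-values are two-sided and were adjusted by Benjamini-Hochberg over all 10853 genes tested. The screening criterion of the study was kept, that is a log2 fold change beyond 1 in either direction together with an unadjusted p under 0.05. Standard errors and 95% intervals are those of the limma fit.

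The members, the gene lists and the tests were chosen with earlier results of these data known. All 10 members are named, as are the other family genes past the filter, listed genes that met the criterion and up to 3 abundant genes of a list. The Fos and Jun genes are named too, as are the 5 genes whose pattern over the 6 samples correlated most with Mmp13 and with Timp1. Results of some listed genes are not reported here. The motif search was chosen after the data were seen. The scripts were tested on simulated data. Figures were drawn with matplotlib 3.10.9 in Python 3.11.15. The alternatives tried were another pseudocount, other filters, median-ratio and quantile scaling, a plain moderation, only the 4 samples compared, the replicate number as a block, each sample left out, and limma voom on the recovered reads of 10845 genes with an exon length.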

Additional observations from a re-analysis of the deposited data

How the results depend on the processing

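Precision was limited by having 2 samples in each group and by the distance between the Laser samples. Of 264 values of single members under the alternatives other than leaving a sample out, 249 kept their direction and their side of the criterion, 5 lost the call, 7 gained it and 3 changed sign. The changes of sign were Mmp2 in SePC-La against PC-La with a pseudocount of 0.1 (-0.030), and Timp3 there with median-ratio scaling (0.0089) and quantile normalization (0.13). Of 180 values with a sample left out, 138 were unaltered in this sense, 8 lost the call, 16 gained it and 18 changed sign. A sample alone in its group is then assumed to vary like the others. The cause was not tested.

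Members past the criterion numbered 1, 1 and 3 for PC-La against Laser, SePC-La against Laser and SePC-La against PC-La. For PC-La against Laser the number was 2 without the filter on low values, with plain moderation and with the replicate block. For SePC-La against Laser it was 0 with a pseudocount of 0.1, a minimum mean of 5 FPKM, only the 4 samples compared and the replicate block, 2 with quantile normalization, and 4 at an unadjusted p under 0.05. For SePC-La against PC-La it was 6 with only the 4 samples compared. At an adjusted p under 0.05 it was 0 in each comparison of the main fit (limma), where an unadjusted p under 0.05 was reached by 1, 4 and 3 members. With only the 4 samples compared, 3 members had an adjusted p under 0.05 in SePC-La against PC-La. With a sample left out it ran from 1 to 4, from 0 to 4 and from 2 to 6.

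Over all genes, 140, 74 and 323 met the criterion. With a minimum mean of 5 FPKM the numbers were 68, 46 and 186, with voom on the recovered reads 221, 134 and 478, and with a pseudocount of 0.1 they were 129 for SePC-La against Laser and 488 for SePC-La against PC-La. In the main fit they were 0 at an adjusted p under 0.05 (limma), and 627, 1318 and 2637 at an unadjusted p under 0.05. For SePC-La against PC-La, the number at an adjusted p under 0.05 depended on the processing. It was 3 with a minimum mean of 5 FPKM, 6 with median-ratio scaling, 8 with quantile normalization and 637 with only the 4 samples compared. With a sample left out they ran from 71 to 664 (664 without Laser replicate 1), from 60 to 253 and from 169 to 584.

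The samples share replicate numbers, but the labels tie no meaning to them. Deviations from the group mean correlated at 0.09 between Laser and PC-La, -0.43 between Laser and SePC-La and -0.18 between PC-La and SePC-La, so the numbers were not taken as pairs. With the replicate number as a block, 133, 81 and 285 genes and 2, 0 and 3 members met the criterion, as Mmp12 in PC-La against Laser gained the call and Mmp13 in SePC-La against Laser lost it.

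With samples left out, the log2 fold changes that changed sign in PC-La against Laser ran from -0.24 to 2.22 for Mmp13, -0.31 to 0.75 for Mmp2, -0.68 to 0.28 for Mmp19, -0.082 to 0.41 for Timp1, -0.022 to 0.20 for Timp2 and -0.24 to 0.43 for Timp3. In SePC-La against Laser they ran from -0.87 to 3.49 for Mmp3, -0.50 to 1.05 for Mmp10, -0.0062 to 3.01 for Mmp12, -0.82 to 1.79 for Mmp2, -0.89 to 0.071 for Mmp19 and -0.29 to 0.37 for Timp3. In SePC-La against PC-La they ran from -1.04 to 1.57 for Mmp2, -0.47 to 0.054 for Mmp19 and -0.32 to 0.21 for Timp3. Mmp2 and Timp3 fell below the minimum mean of 5 FPKM and have no value there.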
